A study of Mus musculus with 2 samples.

Results

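The miR-148 and miR-152 family consists in the mouse of 3 genes, Mir148a, Mir148b and Mir152, whose main products carry 1 shared seed. The members were chosen by name: they are the 3 rows whose Ensembl identifiers carry these symbols, of 1973 miRNA genes in the tables. All 3 reached the detection minimum of 10 counts in both libraries, as did 305 genes in total. RNA shorter than 30 nucleotides was sequenced from whole stomachs of newborn (postnatal day 0) mice of strain B6NCrl, with 1 stomach from each of 2 pups of 1 dam. The labels call them biological replicates 1 and 2, name no treatment or altered allele, and state that sex was not collected. The libraries form 1 group with no contrast between conditions. The labels describe different pups but list 1 donor entry for both, and the spread given below is taken as that between 2 littermates on the pup descriptions alone.

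A microRNA is cut from a hairpin precursor, loaded into an Argonaute protein and guided to messenger RNAs by its seed, the bases near its 5′ end, after which the paired messages are translated less or decay. Members of a family with the same seed can act on overlapping sets of messages. The miR-148 and miR-152 family is known for repressing the maintenance DNA methyltransferase Dnmt1, and miR-148a for acting on the lipid transport gene Abca1 and for its abundance in liver. In gastric cancer, members of the family have been described as lowered.

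The 3p arms show how close the members are. Capitals mark the seed, bases 2 to 8 counted from the 5′ end, in the RefSeq sequences (build GRCm38.p6), in which all 3 genes were matched.
miR-148a-3p: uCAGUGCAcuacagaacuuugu
miR-148b-3p: uCAGUGCAucacagaacuuugu
miR-152-3p: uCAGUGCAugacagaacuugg
The seed CAGUGCA stood at bases 2 to 8 of 3 of 1738 mature entries in the RefSeq table (0.173%), and these were the 3 shown. With miR-148a-3p as the reference, miR-148b-3p differed by C9U and U10C, just behind the seed. Against the same reference miR-152-3p differed by C9U, U10G and U20G, and it is 21 rather than 22 nt long. Taking miR-148b-3p as the reference, miR-152-3p differed by C10G and U20G.

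The 5p arms, the partner strands of the hairpins, were less alike when compared base by base from the 5′ end without gaps. Capitals again mark bases 2 to 8.
miR-148a-5p: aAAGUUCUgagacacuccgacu
miR-148b-5p: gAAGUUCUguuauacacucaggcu
miR-152-5p: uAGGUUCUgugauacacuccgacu
Those of Mir148a and Mir148b share the bases AAGUUCU, whereas Mir152 has AGGUUCU there. Over the compared length the 5p arms of Mir148a and Mir148b had 13 of 22 bases in common without gaps, against 20 of 22 for their 3p arms. For Mir148a and Mir152 these values were 12 of 22 and 18 of 21. The contrast was smaller for Mir148b and Mir152, at 19 of 24 and 19 of 21. The 5p arm of Mir148a has 22 nt and the others have 24 nt, so a comparison without gaps can set bases out of step. By the longest shared stretch, Mir148a and Mir152 were more alike in their 5p arms (11 nt) than in their 3p arms (9 nt). This stretch was 8 nt (5p) and 12 nt (3p) for Mir148a and Mir148b, and 8 nt and 9 nt for Mir148b and Mir152. The tables count reads per gene, so reads from the 5p and the 3p arm of 1 hairpin cannot be told apart here.

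The hairpins are printed because their differences decide whether reads can be assigned to 1 gene. Capitals mark the 3p arm.
Mir148a hairpin: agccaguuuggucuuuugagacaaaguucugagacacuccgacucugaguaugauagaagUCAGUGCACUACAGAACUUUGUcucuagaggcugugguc
Mir148b hairpin: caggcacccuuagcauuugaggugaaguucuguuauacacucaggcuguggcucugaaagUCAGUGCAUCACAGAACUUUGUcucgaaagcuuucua
Mir152 hairpin: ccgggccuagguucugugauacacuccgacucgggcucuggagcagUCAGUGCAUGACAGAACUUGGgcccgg
The longest stretch that any member shared with another of 2202 annotated hairpin transcripts (GENCODE release M21) was 15 nt, between Mir148a and Mir148b, and it was 12 nt for Mir152. Each of the 6 mature arms had an exact match in the annotated transcripts of its own gene alone. Multimapping reads, which made up 26.0% (pup 1) and 25.7% (pup 2) of each table, are not in the gene counts, and matches outside annotated transcripts were not analysed here. The hairpin of Mir152 is shorter (73 nt, against 99 nt for Mir148a and 97 nt for Mir148b). Its G and C content was 61.6%, compared with 45.5% and 45.4%.

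The 3 genes lie on different chromosomes, and each is a lone miRNA gene. On GRCm38, Mir148a (ENSMUSG00000065505.1) occupies chr6:51269812-51269910 on the minus strand and lies between genes, with no annotated gene overlapping it. The nearest protein-coding gene was Nfe2l3, a transcription factor gene, at a distance of 163 kb. Mir148b (ENSMUSG00000065560.1) occupies chr15:103285125-103285221 on the plus strand, within Copz1. Mir152 (ENSMUSG00000065515.1) occupies chr11:96850393-96850465, also on the plus strand, within Copz2. Copz1 and Copz2 are paralogs that encode the zeta subunits of the COPI vesicle coat. Both hairpins lie in intron 1 of a host transcript with 9 exons and touch no annotated exon. The intron of Copz1 spans 16159 nt with Mir148b starting 12183 nt behind exon 1, while that of Copz2 spans 676 nt with Mir152 starting 396 nt behind exon 1. The nearest other annotated miRNA gene lay 65.2 kb from Mir148b, 213 kb from Mir152 and 352 kb from Mir148a. Messages of the host genes were not measured in these libraries.

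**Figure D1:**
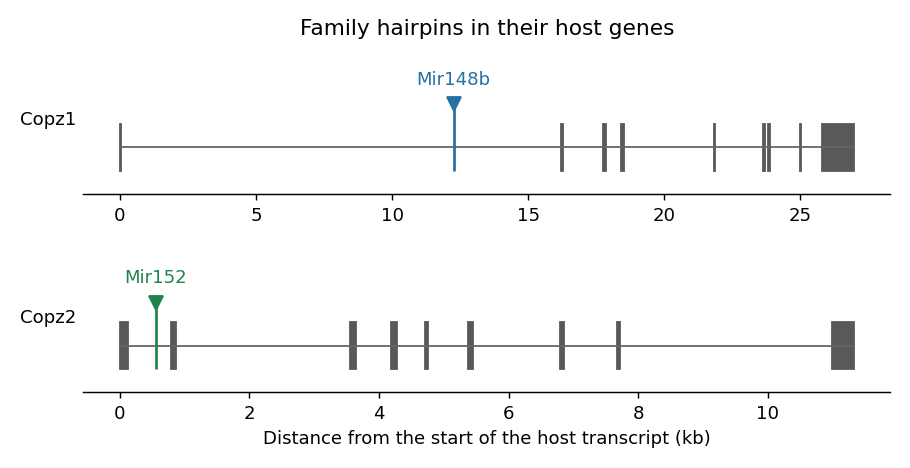
Exons (grey boxes) of the host transcripts of Copz1 and Copz2 and the position of the hairpin (coloured mark) against distance from the transcript's start in kb, with a separate scale for each host. Both hairpins lie between the first and the second exon.

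The seed letters have a counterpart in some of the messages that the family is described to act on. The complement of the seed, TGCACTG, was searched on the sense strand of the longest annotated 3′ untranslated region of each gene in release M21, with overlapping matches allowed. It occurred in 12.7% of 21028 genes. Among 4 genes described as targets, searched as background and chosen for this description, Dnmt1 held 1 match and Abca1 held 2. Dnmt3b, a de novo methyltransferase, and Cckbr, the gastrin receptor, held 0 in this region, and coding sequences were not searched. The matches are shown in capitals with the bases around them, as DNA on the message strand, because they show what the shared seed can pair with.
Dnmt1: cccagagccccacgTGCACTGa
Abca1, upstream match: gcgaggtcttccttTGCACTGt
Abca1, downstream match: aatggatctattttTGCACTGg
These windows lie at chr9:20907491-20907512, chr4:53033882-53033903 and chr4:53030973-53030994 on GRCm38, all on the minus strand. The 3′ untranslated region of Dnmt1 is short, at 312 nt, and the match began at its base 23. Of 1698 genes with a region between 0.8 and 1.2 times that length, 3.12% held the letters. For Abca1 (3156 nt) the share among genes of like length was 24.9%. For Dnmt3b (1331 nt) and Cckbr (917 nt), which held no match, it was 13.4% and 9.46%. In Dnmt1 the letters are followed by an A. A match of these letters is a description of sequence, since no messages were sequenced here.

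The libraries held 4463355 and 3454655 counts on the genes' own strand in pups 1 and 2. Levels are given as own-strand counts per 1000000 (CPM). A count of 0 would allow up to 0.672 CPM in pup 1 and 0.868 CPM in pup 2, and this limit, like the intervals below, covers counting error only, because the reads were amplified by PCR and carry no molecular identifiers to count molecules by. Markers of the labelled tissue were present, as 3 of 3 squamous genes (11.2% and 11.7% of own-strand counts in the 2 pups), 5 of 5 miR-200 family genes of epithelium (6.11% and 6.60%) and 4 of 4 glandular genes (0.816% and 0.769%) were detected. None of 3 pancreatic acinar genes was (0 to 5 counts). Counts of whole tissue do not tell how many cells of a type were present from how much of an RNA each cell held.

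Mir148a was the leading member in both stomachs. It had 5768 counts in pup 1, or 1292 CPM (exact binomial 95% interval 1259 to 1326), and 5438 counts in pup 2, or 1574 CPM (1533 to 1616). Its mean of 1433 ± 199 CPM (SD, n = 2) placed it at rank 71 of the 305 detected genes, above 76.7% of them. Pup 2 stood above pup 1 in CPM, and the pups are compared below after scaling, beside all detected genes.

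Mir148b and Mir152, the members inside COPI coat genes, did not differ from each other beyond the spread between pups. Mir148b had 1129 counts in pup 1 (253 CPM, interval 238 to 268) and 1044 in pup 2 (302 CPM, 284 to 321), a mean of 278 ± 34.8 CPM. Mir152 had 1107 counts in pup 1 (248 CPM, 234 to 263) and 1063 in pup 2 (308 CPM, 289 to 327), a mean of 278 ± 42.2 CPM. Mir148b was the higher of the pair in pup 1 and Mir152 in pup 2. They took ranks 129 and 128, above the median of 166 CPM for detected genes. No member had a read on the opposite strand in either pup.

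**Figure D2:**
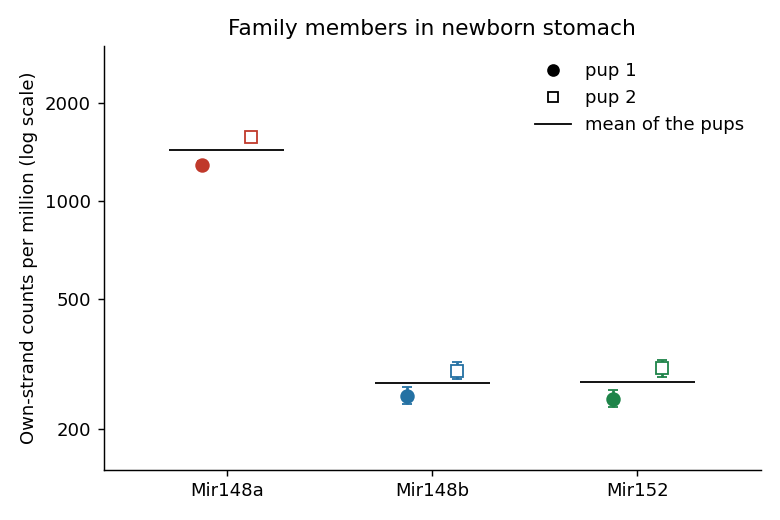
Own-strand CPM (log axis) of each member in pup 1 (filled circles) and pup 2 (open squares), with exact binomial 95% intervals and the mean of the pups as a line. Mir148a, at 1292 and 1574 CPM, stands apart from Mir148b and Mir152, which lie between 248 and 308 CPM.

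Summed, the family held 8004 counts in pup 1 and 7545 in pup 2. This was 0.179% of own-strand counts in pup 1 (interval 0.175% to 0.183%) and 0.218% in pup 2 (0.214% to 0.223%), a mean of 0.199% ± 0.0276. The sum, 1989 ± 276 CPM, would take place 57 among the 302 other detected genes. Mir143, the smooth muscle gene that was highest in these libraries, held 24.2% of own-strand counts.

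Mir148a stood well above each of the other members in both pups. Mir148a exceeded Mir148b 5.11-fold in pup 1 (interval 4.79 to 5.45) and 5.21-fold in pup 2 (4.87 to 5.57), a mean log2 ratio of 2.37 ± 0.020 (SD, n = 2). Its excess over Mir152 was 5.21-fold in pup 1 (4.89 to 5.56) and 5.12-fold in pup 2 (4.79 to 5.47), a mean log2 ratio of 2.37 ± 0.019. Both differences were far larger than the spread between the pups. The log2 ratio of Mir148b over Mir152 was 0.028 in pup 1 and -0.026 in pup 2, a mean of 0.0012 ± 0.038, which is smaller than its spread. With 2 libraries an exact permutation test cannot go below p = 0.5, and the SD is the measure of error given for these ratios. They compare counts, and the 3p arms are of nearly the same length and differ at 2 or 3 positions. Unequal capture of the sequences during library preparation was not tested.

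Mir148a thus made up 72.1% of the family's counts in pup 1 (interval 71.1% to 73.0%) and 72.1% in pup 2 (71.0% to 73.1%). Mir148b made up 14.1% and 13.8%, and Mir152 13.8% and 14.1%. Of the 3 pairs of members compared between pups by a two-sided Fisher's exact test, none passed the threshold, with Benjamini-Hochberg adjusted p = 0.71 for each. The ratio of Mir148a to Mir148b in pup 1 was 0.981 times that in pup 2 (exact 95% interval 0.894 to 1.08). For Mir148a to Mir152 this value was 1.02 (0.928 to 1.12), and for Mir148b to Mir152 it was 1.04 (0.920 to 1.17). Changes in make-up within these intervals are not excluded.

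**Figure D3:**
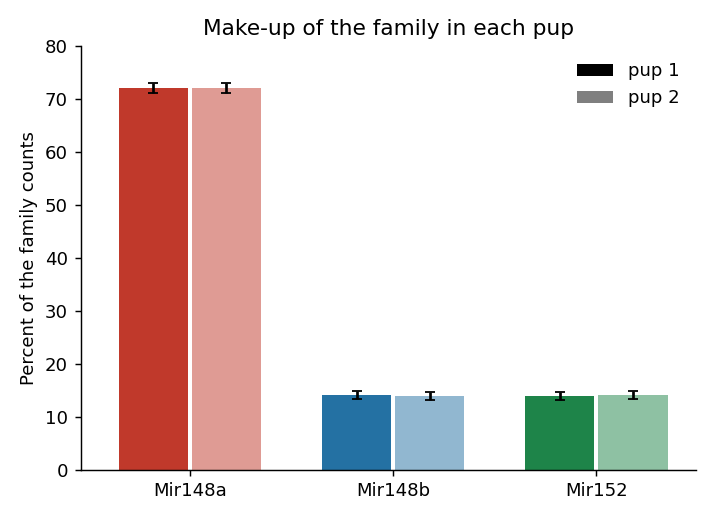
Percent of the family's counts that came from each member in pup 1 (solid bars) and pup 2 (pale bars), with exact binomial 95% intervals. The bars of each member are level between the pups, with Mir148a at 72.1% in both.

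The levels of the members were higher in pup 2 beyond counting error. After scaling to TMM effective library sizes, Mir148a had a log2 ratio (pup 1 over pup 2) of -0.18 (exact 95% interval -0.24 to -0.13; adjusted p = 1.4e-10), so that pup 2 was 1.13-fold higher. For Mir152 it was -0.21 (-0.33 to -0.085; adjusted p = 0.0022), or 1.16-fold. For Mir148b it was -0.15 (-0.28 to -0.031; adjusted p = 0.028), or 1.11-fold. These are two-sided exact binomial tests with Benjamini-Hochberg adjustment over all 305 detected genes. They compare the 2 libraries and cover counting error only.

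Differences of this size were common between the pups. An adjusted p under 0.05 in either direction was reached by 52.1% of all detected genes. With the higher scaled level in pup 2 it was reached by 3 of 3 members and by 24.3% of all detected genes. With the higher scaled level in pup 1 it was reached by 27.9%. The median absolute log2 ratio of all detected genes was 0.17, and 47.2% of them had a larger ratio than Mir148a, 37.7% than Mir152 and 55.1% than Mir148b. When a ratio of at least 1.5 was also required, no member was called, against 2.95% of detected genes (9 genes, 7 with the higher scaled level in pup 2 and 2 in pup 1). That split was 15 and 1 with total counts as library sizes, and 6 and 4 with DESeq2 size factors. With the common dispersion that edgeR estimated from the same libraries as the error, each member had an adjusted p of 0.999 (unadjusted 0.44 for Mir148a, 0.53 for Mir148b and 0.39 for Mir152), and 0.328% of genes passed. That dispersion takes the differences between the pups themselves as error, so few genes can pass and the outcome cannot decide whether the members differ. Mir148b also lost its adjusted p under 0.05 with DESeq2 size factors (0.067) and without a filter on low counts (0.15).

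**Figure D4:**
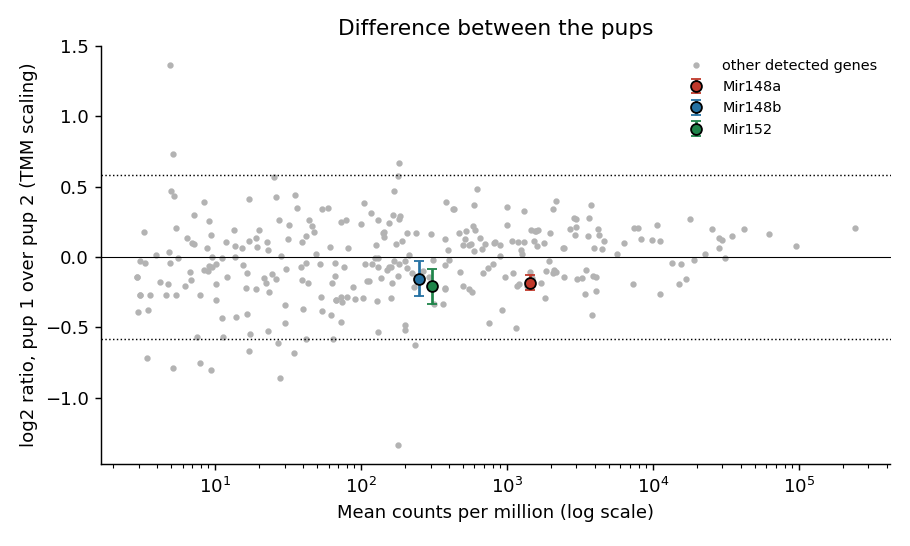
The log2 ratio of pup 1 over pup 2 after TMM scaling against the mean level (log axis) for all 305 detected genes (grey) and the members with exact 95% intervals, with Mir148b and Mir152 drawn slightly apart sideways. Dotted lines mark a ratio of 1.5, and the members lie between -0.15 and -0.21, inside these lines and among the other genes.

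Marker genes of cell types, those of the stomach and hepatocytes, went in both directions between the pups. The hepatocyte gene Mir122, of interest since miR-148a is also abundant in liver, had 916 counts in pup 1 and 881 in pup 2 (205 and 255 CPM). On the log2 scale pup 1 over pup 2 gave -0.21 (adjusted p = 0.0053, exact binomial test). Of the miR-200 family genes, 4 of 5 were higher in pup 2 at an adjusted p under 0.05 and 1 was higher in pup 1. Of 4 leukocyte genes, 2 passed with the higher scaled level in pup 2 and 1 with the higher in pup 1. Their summed levels, without TMM scaling, were 0.0624% and 0.0647% of own-strand counts, a log2 ratio (pup 1 over pup 2) of -0.052. Going from TMM sizes to total counts shifts each log2 ratio by -0.10, so after TMM scaling this sum was higher in pup 1. The smooth muscle pair, Mir143 and Mir145a, held 25.6% of own-strand counts in pup 1 and 23.9% in pup 2. Mir143 passed towards pup 1 (log2 ratio 0.21), while Mir145a did not pass (0.024, adjusted p = 0.14, exact binomial test). The endothelial gene Mir126a was higher in pup 1, by 0.15 on the log2 scale (adjusted p = 8.0e-166, exact binomial test). Of 3 squamous genes, 2 passed towards pup 2 and 1 towards pup 1, and the 4 glandular genes were split evenly, with 2 in each direction. The part of liver tissue or of tissue make-up in the members' difference was not tested.

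The genes next to the members were picked by their place in the order of mean levels. Their closeness to the members and their side follow from that choice. Just above Mir148a stood Mir324 (1434 ± 149 CPM) and Mir101b (1470 ± 63.8 CPM), each within the spread of its log2 ratio to Mir148a over the pups. Just below stood Mir425 (1410 ± 184 CPM) and Mir96 (1371 ± 206 CPM), a gene of sensory and endocrine cells, which were lower than Mir148a by 0.023 ± 0.013 and 0.066 ± 0.017 on the log2 scale. Around Mir148b and Mir152, Mir186 (303 ± 8.58 CPM) lay above Mir152 by 0.13 ± 0.26 on the log2 scale, which is within the spread. Mir125b-1 (294 ± 34.8 CPM) lay above Mir152 by 0.085 ± 0.049. Below them, Mir339 (267 ± 26.4 CPM) was within the spread of Mir152 and lower than Mir148b by 0.052 ± 0.039 on the log2 scale. Mir421 (263 ± 32.5 CPM) was lower than Mir148b by 0.079 ± 0.0025. These SDs come from 2 pups and leave counting error out. In both pups Mir425 (1280 and 1540 CPM) lay inside the counting interval of Mir148a. Mir339 (249 and 286 CPM) and Mir421 (240 and 286 CPM) likewise lay inside that of Mir148b. Mir96 lay outside that of Mir148a in both pups, and Mir125b-1 outside that of Mir152 in pup 1 (270 CPM) only. These genes are named for their place in the order alone.

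Other miRNA genes reported to act on DNA methyltransferases spanned the whole range of levels around the family. Of 9 such genes 7 were detected, and 3 stood above Mir148a: Mir143, the endothelial gene Mir126a (35026 ± 844 CPM) and Mir342 (1813 ± 347 CPM). Mir140, a gene of cartilage and mesenchyme, lay at 1273 ± 52.0 CPM, between Mir148a and the other members. The remaining 5 lay below Mir152, among them Mir185 (199 ± 56.6 CPM), Mir29a (143 ± 2.98 CPM) and Mir29c (114 ± 15.1 CPM). Multimapping reads are not in the gene counts. Genes of this list and of the digestive gland list were not checked for mature sequences shared with other genes, which can lower their counts. The median was 199 CPM over all 9 genes of the list and 1273 CPM over its 7 detected genes, the latter beside 166 CPM for all detected genes. Of its 7 tested genes, 2 passed towards pup 2 and 2 towards pup 1 at an adjusted p under 0.05. The list's median log2 pup ratio, pup 1 over pup 2, was 0.020, beside -0.024 for all genes tested.

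Among miRNA genes of digestive glands, 6 of 9 were detected. Above Mir148a stood Mir375, of endocrine cells (7417 ± 372 CPM), and the glandular epithelial genes Mir215 (3799 ± 491 CPM) and Mir192 (2692 ± 131 CPM). Mir194-2 (933 ± 216 CPM) and Mir194-1 (499 ± 75.6 CPM) lay between Mir148a and the lower members, and Mir122 (230 ± 35.2 CPM) lay below them. The pancreatic acinar genes Mir217, Mir216a and Mir216b were at or near the limit of a count of 0. Of the 6 tested genes, 3 passed the same threshold towards pup 2 and 3 towards pup 1. The median log2 ratio was -0.0026.

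**Figure D5:**
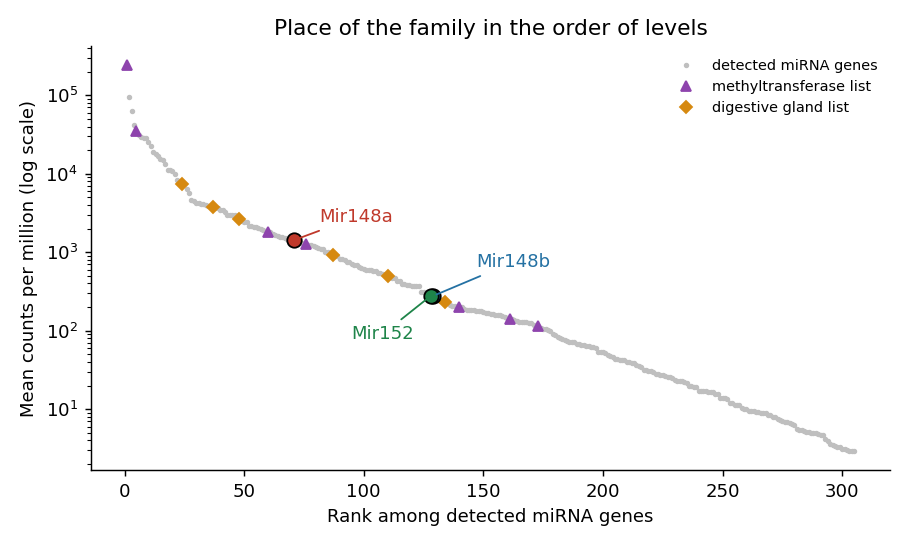
Mean CPM (log axis) of the 305 detected genes against their rank (grey), with the family members (circles), genes reported to act on DNA methyltransferases (triangles) and genes of digestive glands (diamonds). Mir148a lies at rank 71, and Mir152 and Mir148b coincide at ranks 128 and 129.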

How the data were processed

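Small RNA libraries from the stomachs of 2 newborn littermates were analysed. Per library, the authors deposited a table of raw counts of reads per miRNA gene, for each strand and for both. The accompanying description files name assembly mm10 and annotation M4; for the aligner and counter, the sources used here give no name. The strand column with the larger total (97.7% and 97.8% of gene counts) was used. Rows naming no gene (36.5% and 36.3% of all reads) stayed out of totals. Of 1973 identifiers 1894 matched GENCODE M21 (GRCm38) without version, including all members. Intervals are exact binomial (Clopper-Pearson). Pups were compared by exact binomial tests against TMM effective library sizes (edgeR 4.0.16, R 4.3.3). A call required a 1.5-fold ratio besides the adjusted p threshold of 0.05. The test was checked on simulated counts that held counting error alone, so the check does not cover spread between animals. DESeq2 1.42.0 gave alternative size factors. Python 3.11.15 and scipy 1.17.1 did the rest. Named genes are the members, their 2 neighbours on each side in level, and up to 4 of the highest detected genes of each list. The genes searched for seed matches, Mir29a, Mir29c, Mir185, Mir194-1, Mir122, the acinar genes, and the genes of the shifted seed are named outside this rule, for their place in a list or their sequence. Members and lists were chosen with earlier results of these data known.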

Additional observations from a re-analysis of the deposited data

How the results depend on the processing

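Of 60 alternative values, 50 kept their direction and call or, for levels and ratios, stayed within 1 SD of the value given. The other 10 were levels with another denominator and numbers of called genes. Some of the 50 were fixed in advance and say nothing on stability. With 2 libraries, each pup alone always lies within 1 SD of their mean. Ratios and make-up could not change without regard to strand, as no member had a read on the opposite strand. Without Mir143 in the total, Mir148a stood at 1889 CPM, Mir148b at 366 CPM and Mir152 at 366 CPM, and the family at 0.262%. Over all reads of the tables, these values were 891, 173 and 173 CPM and 0.124%. Both changes follow from the size of the total, and ratios between members do not depend on it. The 9 genes called between pups became 16 with total counts as library sizes and 1 with edgeR's common dispersion (16 genes at an unadjusted p under 0.05). With total counts in place of TMM sizes every log2 ratio of pup 1 over pup 2 dropped by 0.10 (median of all genes -0.13, against -0.024), and the members' values were -0.28 for Mir148a, -0.26 for Mir148b and -0.31 for Mir152. All 3 stayed below 0 under each of the 6 alternatives for the pup comparison, and none was called. As no member was called in the main comparison, a lost adjusted p under 0.05 still counts among the 50. All 3 members lost it with edgeR's common dispersion, which takes the difference between the pups as error. Mir148b also lost it with DESeq2 size factors and without a filter on low counts. No paired analysis was possible because the libraries form 1 group. With 2 libraries, leaving out a pup leaves the other's level, given above, and no spread. The labels give no sex, so sex and other differences between the pups cannot be told apart.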

Other observations

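The letters of the family's seed, CAGUGCA, also open the mature miRNAs of another family, shifted by 1 base. They stood at bases 1 to 7 of 7 mature entries of the RefSeq table, without the leading U of the miR-148 and miR-152 family. Shown with these letters in capitals, the 3 of them that come from detected genes are the following.
miR-130a-3p: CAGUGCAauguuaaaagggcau
miR-130b-3p: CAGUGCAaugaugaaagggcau
miR-301a-3p: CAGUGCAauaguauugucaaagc
Mir130a had 65982 counts in pup 1 and 56835 in pup 2, a mean of 15617 ± 1180 CPM (SD, n = 2). Mir130b stood at 1931 ± 126 CPM and Mir301 at 753 ± 209 CPM. Mir721, which gives the remaining entry, was not analysed here, and the 3p arm of Mir301b was not compared here. The genes Mir130c, Mir6341 and Mir6389, whose products open with the same letters, had 0 counts in both pups. The shift by 1 base gives these miRNAs another seed, AGUGCAA in bases 2 to 8, and whether both families act on the same messages was not tested.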
